A study of Mus musculus with 11 samples.

Results

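The genes described here encode 8 proteins that adipocytes release: Adipoq, Lep, Retn, Cfd, Nampt, Rarres2, Lcn2 and Agt. They were chosen by name as adipokines and adipocyte secreted proteins, and all 8 were found among the 29955 gene symbols measured in each of 11 RNA-seq samples. White adipose tissue is an endocrine organ as well as an energy store. Its adipocytes switch on hormones such as adiponectin and leptin, complement factors and other secreted proteins as they mature, and these act on the brain, liver, muscle, vessels and immune cells. Beige adipocytes are thermogenic cells that arise in subcutaneous white fat, and in culture rosiglitazone (ROS), a synthetic ligand of the nuclear receptor PPARγ, favours their formation.

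All samples were mouse im-scWAT cells, stromal vascular preadipocytes of inguinal subcutaneous white adipose tissue immortalized with the SV40 large T antigen. Each sample was therefore a culture of these cells, differentiated or not, and held no tissue depot. In the time course, untransduced cells were induced with indomethacin, dexamethasone, IBMX, insulin and T3 and were sampled at day 0, 4 and 8, either with ROS at 0.5 μM or with none throughout (1 sample each). The labels place the cells given ROS in medium lacking it for the last day before day 8, whereas the methods keep ROS throughout, so the ROS exposure on that day is unsettled. In the methods, day 0 is the day of confluence, on which the induction medium and ROS were first given. The 2 samples of day 0 were therefore treated as 1 group, and for them with and without ROS names the series. In the other experiment, all cells were differentiated to day 8 with ROS and carried a retroviral shRNA against mouse Jmjd1a (sh-mJmjd1a) and a retrovirus for human JMJD1A, a histone H3K9 demethylase. The human protein was WT-hJMJD1A (2 samples, A and B), the phosphorylation-defective S265A (1 sample), the phosphomimetic S265D (1 sample), or S265D-H1120Y, which adds a substitution that removes the catalytic activity (1 sample). Both the shRNA and the human JMJD1A were therefore shared by the WT controls. The viral vectors act in every transduced cell, and nothing in the sources says that samples came from separate cultures. The p-values therefore measure only the spread between these samples, which may be technical. In the time-course fit this spread comes from the day 0 pair and from the change of the ROS difference between day 4 and day 8. A ROS effect that grew between those days therefore counts as spread there.

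Levels are FPKM, mapped fragments scaled to exon length and to the library's total, which can be compared between genes. The samples held 3.10 to 5.29 Gb of mapped bases (median 4.64). Adipocyte identity was checked with 8 markers (Pparg, Cebpa, Fabp4, Plin1, Cidec, Lipe, Pnpla2 and Slc2a4), whose summed FPKM was 278 and 280 at day 0 and 9246 to 35607 in the differentiated samples. Of 7 macrophage markers, Emr1 and Ptprc were at 0 in all samples, while Cd68 was at 0.541 to 21.7 FPKM. The 7 summed to 8.33 and 8.19 FPKM at day 0 (with and without ROS), mostly from Cd14 (5.56 and 5.42). The 5 endothelial markers summed to 0.367 to 4.05 FPKM. One pair stood apart: between WT A and WT B, which share one genotype, 27.2% of expressed genes differed 2-fold or more. With other settings of the processing this share was 9.94% to 34.4%. Kdm3a, the mouse gene for JMJD1A, was measured at 21.1 FPKM in untransduced cells at day 8 with ROS, 20.4 and 17.9 in WT A and WT B, 13.0 in S265A, 23.0 in S265D and 28.5 in S265D-H1120Y. The introduced human sequence may add reads to Kdm3a, so this value does not check the knockdown.

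The genes lie on 6 mouse chromosomes of the mm9 build, and each was represented by 1 sense coding transcript. Adipoq encodes adiponectin, an insulin-sensitizing hormone, and was placed on chromosome 16 from 23146609 to 23158041. Lep, for the satiety hormone leptin, was on chromosome 6 from 29010221 to 29023876, the same chromosome as Rarres2 (48519697 to 48522669), for the chemoattractant chemerin. Retn (resistin) was on chromosome 8 from 3655789 to 3658095 and Agt (angiotensinogen, the precursor of the angiotensins) on the same chromosome from 127080487 to 127093607. Cfd, for the complement protease adipsin (factor D), lay on chromosome 10 from 79353598 to 79355401. Nampt, for the rate-limiting enzyme of NAD salvage, also released as visfatin, lay on chromosome 12 from 33505200 to 33538234. Lcn2, for the iron-siderophore binding lipocalin 2, lay on chromosome 2 from 32240157 to 32243259.

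Promoters were taken from RefSeq on GRCm38.p6, where 7 of the 8 genes matched, and Rarres2 was not among them. The 250 bases before each start were searched on both strands for the nuclear receptor core AGGTCA, its direct repeat AGGTCANAGGTCA, the C/EBP core TTNNGCAA and the TATA box TATAAA. Among 32851 mouse promoters of the same length, 14.0% held AGGTCA, 0.0335% the direct repeat, 9.56% TTNNGCAA and 12.4% TATAAA. Adipoq is shown as the adipokine with the highest fold change during differentiation, and the others as the 4 genes with a match, which stands in capitals:
Adipoq, chr16:23146286-23146535, plus strand: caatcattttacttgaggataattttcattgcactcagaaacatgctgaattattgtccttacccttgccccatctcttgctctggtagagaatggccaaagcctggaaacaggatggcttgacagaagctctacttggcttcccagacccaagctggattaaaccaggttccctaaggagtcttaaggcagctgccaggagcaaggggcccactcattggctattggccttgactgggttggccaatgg
Nampt, chr12:32820085-32820334, plus strand: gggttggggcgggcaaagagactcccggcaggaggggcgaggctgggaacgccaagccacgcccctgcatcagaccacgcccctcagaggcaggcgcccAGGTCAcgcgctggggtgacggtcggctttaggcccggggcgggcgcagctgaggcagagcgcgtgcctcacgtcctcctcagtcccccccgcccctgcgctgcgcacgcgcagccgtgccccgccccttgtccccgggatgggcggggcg
Lep, chr6:29059971-29060220, plus strand: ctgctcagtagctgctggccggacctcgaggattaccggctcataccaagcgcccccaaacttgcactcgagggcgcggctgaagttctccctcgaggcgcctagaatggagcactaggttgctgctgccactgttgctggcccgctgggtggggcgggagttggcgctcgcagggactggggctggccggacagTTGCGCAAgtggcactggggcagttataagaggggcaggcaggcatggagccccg
Lcn2, chr2:32387740-32387989, minus strand: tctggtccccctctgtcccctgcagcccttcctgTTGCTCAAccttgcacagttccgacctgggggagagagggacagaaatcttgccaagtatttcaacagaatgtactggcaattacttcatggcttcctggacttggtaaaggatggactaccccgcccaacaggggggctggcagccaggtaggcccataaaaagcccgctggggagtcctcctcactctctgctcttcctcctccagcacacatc
Agt, chr8:124569707-124569956, minus strand: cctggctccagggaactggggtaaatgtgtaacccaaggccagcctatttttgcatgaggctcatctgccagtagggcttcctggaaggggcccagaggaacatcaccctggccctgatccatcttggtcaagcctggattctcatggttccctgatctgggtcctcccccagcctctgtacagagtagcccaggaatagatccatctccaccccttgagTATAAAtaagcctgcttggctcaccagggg

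The match in Nampt was an AGGTCA at 151 to 146 bases before the start. The match in Lep was TTGCGCAA at 55 to 48 bases before the start, which reads the same on both strands. Lcn2 held TTGCTCAA at 216 to 209 bases before the start, a match to TTNNGCAA on the opposite strand, and Agt held TATAAA at 30 to 25 bases before the start. None of these letters was found in the windows of Adipoq, Retn and Cfd, and no gene of the 7 held the direct repeat. These are matches of letters and not measured binding sites.

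The first comparison asked how the genes differ between preadipocytes and differentiating adipocytes. Of the 8 genes, 7 were higher at days 4 and 8 than at day 0 (limma, adjusted p under 0.05), beside 27.5% of 16400 genes tested that were called higher and 26.9% called lower. Adipoq, Retn, Cfd, Rarres2, Lcn2 and Agt went from a few FPKM or less to between 11.9 and 1887. Nampt started from a level that preadipocytes already had. Lep stayed near the limit of detection. The summed FPKM of the 8 genes was 23.9 and 22.1 at day 0, 1785 and 1725 at day 4 and 3145 and 3460 at day 8 (with and without ROS, respectively).

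Among the hormones, Adipoq was at 0.121 and 0.0519 FPKM at day 0 with and without ROS, at 1126 and 881 at day 4, and at 1291 and 709 at day 8. The preadipocyte and adipocyte values did not overlap, and the lowest adipocyte level was 5859 times the highest preadipocyte level. On the log2(FPKM + 0.1) scale Adipoq rose by 12.38 ± 0.22 (SE, 2 samples against 4, limma adjusted p = 1.17e-04). This scale understates the change of genes that start near 0.

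Retn was at 0.134 and 0 FPKM at day 0, at 125 and 141 at day 4, and at 238 and 278 at day 8 (with and without ROS). It rose by 10.24 ± 0.37 log2 units (SE, limma adjusted p = 2.55e-04). A second Retn transcript with 563 exon bases in place of 1119 gave 517 and 607 FPKM at day 8, so the level, though not the direction, depended on the transcript counted.

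Lep was at 0 FPKM in both samples of day 0 and in both samples with ROS at days 4 and 8. Without ROS it was at 0.0196 at day 4 and 0.252 at day 8. Those levels rested on 198 and 3567 mapped bases, and 198 bases was the smallest amount above 0 that any sample held, which equals 0.0115 to 0.0196 FPKM over the depths of the 11 samples. Its difference between days 4 and 8 and day 0 was 0.52 ± 0.34 log2 units (SE, limma adjusted p = 0.247). At this depth leptin mRNA was detected in 6 of 11 samples and was below 0.3 FPKM in each, while the other 7 genes were at 1 FPKM or more in all 9 differentiated samples.

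Of the complement and chemoattractant factors, Cfd was at 0.0925 and 0.0698 FPKM at day 0, at 220 and 360 at day 4, and at 1182 and 1887 at day 8 (with and without ROS). It was the most abundant of the 8 genes at day 8 without ROS, and Adipoq was the most abundant in the other time-course samples of days 4 and 8. Cfd rose by 11.81 ± 0.12 log2 units from day 0 (SE, limma adjusted p = 1.17e-04).

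Rarres2 was at 0.181 and 0.182 FPKM at day 0, at 29.1 and 32.2 at day 4, and at 128 and 132 at day 8. The pairs with and without ROS lay close together at each day. Rarres2 rose by 7.81 ± 0.11 log2 units (SE, limma adjusted p = 1.17e-04).

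Lcn2 was at 0 FPKM in both samples of day 0, at 11.9 and 15.2 at day 4, and at 29.8 and 85.4 at day 8 (with and without ROS). It was called higher (limma adjusted p = 2.20e-04), and no fold is given against a level listed at 0. Agt was already present at day 0, at 1.75 and 2.26 FPKM, and reached 176 and 194 at day 4 and 154 and 243 at day 8. Agt rose by 6.50 ± 0.18 log2 units (SE, limma adjusted p = 1.69e-04).

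Nampt was the 1 gene of the 8 above 3 FPKM in preadipocytes, at 21.7 and 19.5 with and without ROS. Its levels were 95.7 and 101 at day 4 and 123 and 126 at day 8. The rise was 2.42 ± 0.12 log2 units (SE, limma adjusted p = 4.59e-04), the smallest of the 7 called. The calls of all 7 genes held in every alternative fit (highest adjusted p 0.0218, Retn).

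**Figure D1:**
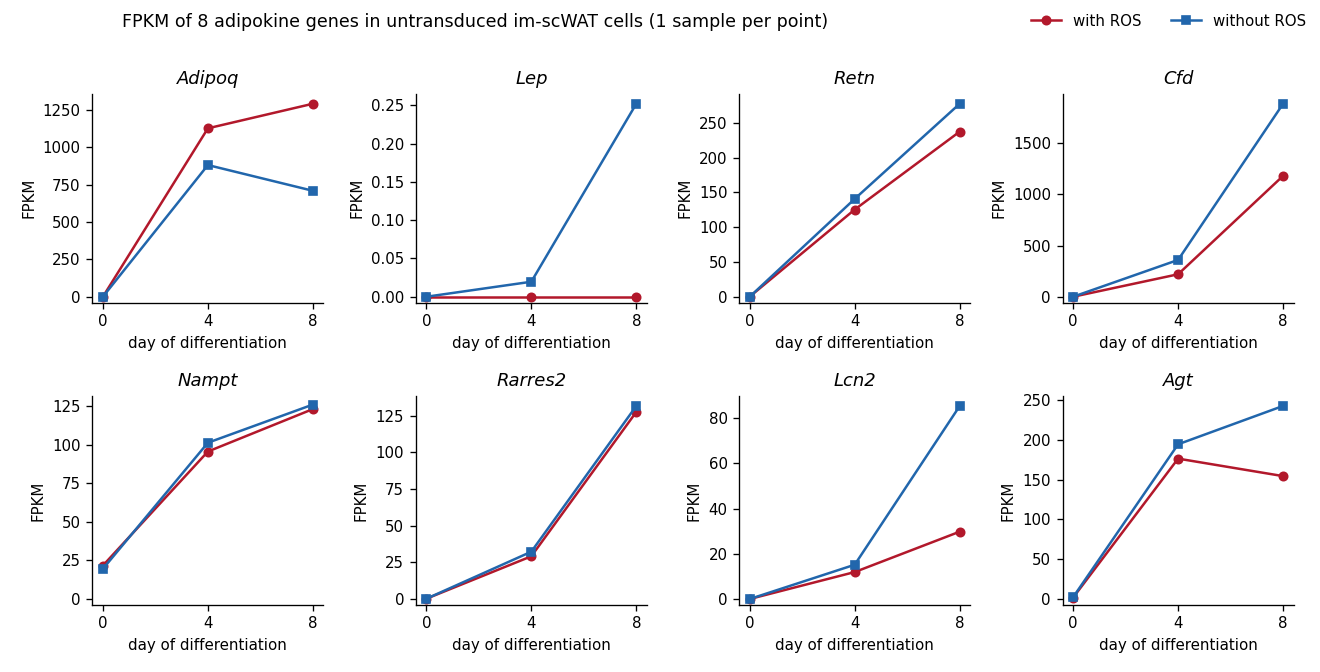
FPKM (y axis, linear and scaled per gene) of the 8 genes in untransduced im-scWAT cells at day 0, 4 and 8 of differentiation (x axis), with ROS (circles) and without ROS (squares), 1 sample per point. Lep did not exceed 0.252 FPKM, and Cfd and Rarres2 went on upward after day 4 in both series. The lines of Adipoq, Lep, Cfd, Lcn2 and Agt lay apart at day 8.

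Between day 4 and day 8 the genes parted. Cfd rose by 2.41 ± 0.14 log2 units (SE, limma adjusted p = 0.0360) and Rarres2 by 2.08 ± 0.13 (SE, limma adjusted p = 0.0360), beside 0.652% of all genes tested that were called higher. Cfd at day 8 was 5.38 times its day 4 level with ROS and 5.24 times without, and Rarres2 4.38 and 4.08 times. The corresponding ratios were 2.50 and 5.63 for Lcn2 (limma adjusted p = 0.0770), 1.89 and 1.97 for Retn (adjusted p = 0.224) and 1.29 and 1.24 for Nampt (adjusted p = 0.195). These 3 genes had higher values at day 8 in both series but did not pass the test. Adipoq had ratios of 1.15 with ROS and 0.805 without, and Agt 0.875 and 1.25, so neither gene had 1 direction. The fit has 2 residual degrees of freedom, and with any 1 of the 6 samples left out neither Cfd nor Rarres2 passed (adjusted p up to 0.236).

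The next comparison asked how the genes differ between adipocytes formed with ROS, taken in the study as beige, and those formed without, taken as white. At day 8 Adipoq was the 1 gene of the 8 with a higher level with ROS, and the other 7 had lower levels. Of these, Lcn2 and Lep were called 2-fold or more lower. Lep was called at 0 against 0.252 FPKM, which gives no fold. Among 15536 expressed genes (FPKM of at least 0.1 in either sample), 4.00% were 2-fold or more higher with ROS and 15.2% were 2-fold or more lower. The median log2 ratio was -0.23 over the 7 genes detected in both samples, -0.44 over the 8 with Lep ranked lowest, and -0.22 over all expressed genes, so the ratios are read beside a general offset to lower values. There was 1 sample per group at each day, and a ratio from a single pair has no replicate check.

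Adipoq with ROS was 1.28 times its level without ROS at day 4 (1126 against 881 FPKM) and 1.82 times at day 8 (1291 against 709). Its day 8 ratio lay above that of 95.1% of expressed genes. When samples were scaled to a common upper quartile the ratio became 2.05, which passes the 2-fold limit. Over days 4 and 8 the difference was 0.61 ± 0.25 log2 units (SE, 2 samples against 2, limma adjusted p = 0.307).

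Lcn2 had the lowest ratio among the genes detected in both samples of day 8, 0.349 (29.8 against 85.4 FPKM), after 0.786 at day 4. Over both days its difference was -0.93 ± 0.30 log2 units (SE, limma adjusted p = 0.254). Lep was at 0 with ROS and at 0.252 without at day 8, which gives a direction but no fold.

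Cfd had ratios of 0.610 at day 4 and 0.626 at day 8, nearly the same at both days, and its difference of -0.69 ± 0.14 log2 units (SE) had the smallest adjusted p among the 8 genes (limma adjusted p = 0.186). Agt had ratios of 0.907 at day 4 and 0.637 at day 8 (difference over both days -0.40 ± 0.21, SE, limma adjusted p = 0.384). Retn had ratios of 0.891 and 0.855. The ratios of Nampt were 0.944 and 0.977 and those of Rarres2 0.903 and 0.969. The last 2 genes were above 1 at day 8 after scaling to a common upper quartile (1.10 and 1.09), so their direction is not settled.

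No gene of the 16400 passed limma's adjusted threshold for ROS over days 4 and 8 (0 called, 2901 at an unadjusted p under 0.05, 3 of them among the 8 genes: Cfd, Lcn2 and Lep), nor at day 8 alone (0 called, 5011 at an unadjusted p under 0.05). Without a minimum FPKM, 41 genes passed for ROS over days 4 and 8, none of the 8 among them. At day 4, 2.20% of expressed genes were 2-fold or more higher with ROS and 4.51% lower, and none of the 7 expressed genes among the 8 was in either group. As background, the 2 samples of day 0 differed 2-fold or more in 4.90% of expressed genes, among them Adipoq and Retn at no more than 0.134 FPKM.

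**Figure D2:**
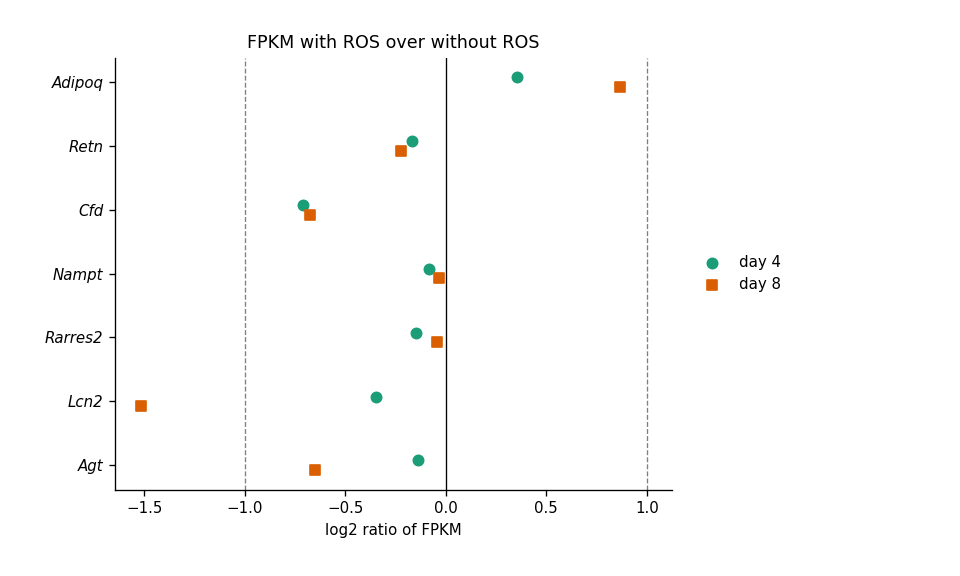
Log2 ratio of FPKM with ROS over without ROS (x axis) for 7 genes (y axis) at day 4 (circles) and day 8 (squares), 1 pair of samples per point. The solid line marks equal levels and the dashed lines 2-fold. Lep, at 0 with ROS on both days, is not drawn. Adipoq lies to the right at both days (0.36 and 0.87), and Lcn2 at day 8 (-1.52) is the 1 point beyond a dashed line.

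Marker levels differed with ROS at day 8. The summed adipocyte markers were 35607 FPKM with ROS and 9246 without, and 4205 and 1615 with Fabp4 left out. The 8 preadipocyte markers summed to 259 with ROS and 992 without, against 1235 and 1314 at day 0. Ly6a, Col3a1 and Col1a1 made up most of these sums. Between day 0 and days 4 and 8, 5 of the 8 fell and 1 rose in limma's test. The 1 that rose was Pdgfra, at 11.9 and 11.8 FPKM at day 0 and 18.3 and 35.2 at day 8 (with and without ROS). Beige markers, among them Ucp1 and Cidea, summed to 225 and 51.0. In these bulk samples more adipocytes and more RNA per adipocyte cannot be told apart, and the part of these shifts in the adipokine ratios was not tested. The adipocyte markers themselves were not of 1 direction, since Pparg was at 140 FPKM with ROS and 231 without and Slc2a4 at 92.8 and 88.2. Adipoq had the direction of the marker sum. The other 7 adipokine genes, among them Cfd, Lcn2 and Agt, had the opposite one, though that of Nampt and Rarres2 is not settled.

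The genes that act with the 8 adipokines were described from lists of receptors and clearance proteins, of partner enzymes, and of other secreted proteins of adipocytes. Of 10 receptor and clearance genes tested, 2 rose and 3 fell between day 0 and days 4 and 8, beside 27.5% and 26.9% of all genes tested. Adipor2, a receptor of adiponectin, rose by 2.98 ± 0.23 log2 units (SE, limma adjusted p = 0.00121), from 17.7 and 19.6 FPKM to between 91.7 and 224, and Agtr2, a receptor of angiotensin II, rose by 5.02 ± 0.32 (SE, limma adjusted p = 8.00e-04). Cap1, which has been described as a receptor of resistin, fell by 1.30 log2 units, C3ar1 by 2.53 and Atp6ap2, the (pro)renin receptor, by 0.85 (limma adjusted p of 0.0102 or less). The other adiponectin receptor, Adipor1, was at 67.0 to 112 FPKM in the 6 time-course samples. The leptin receptor Lepr and the chemerin receptor Cmklr1 did not exceed 0.3 FPKM in any of the 11 samples.

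Of 16 partner enzymes and processing genes tested, 12 rose and none fell, beside the same 27.5% and 26.9%. C3, the complement component that feeds the pathway in which adipsin acts, went from 0.790 and 0.636 FPKM at day 0 to 427 and 616 at day 4 and 230 and 613 at day 8 (with and without ROS), a rise of 9.08 ± 0.23 log2 units (SE, limma adjusted p = 1.39e-04). Cfb, the substrate of adipsin, rose by 5.52 ± 0.25 (SE, limma adjusted p = 3.76e-04). Ace, which makes angiotensin II, rose by 4.67 ± 0.31 (SE, limma adjusted p = 8.97e-04), and Ren1, the renin that cuts angiotensinogen, was at 0 at day 0, at 3.71 and 4.52 FPKM at day 4 and at 0.0893 and 1.21 at day 8. Nmnat1, which uses the product of Nampt to make NAD, rose by 0.89 ± 0.17 (SE, limma adjusted p = 0.0120). Ero1l, an oxidase of the endoplasmic reticulum that assists the release of adiponectin, rose by 2.27 ± 0.21 (SE, limma adjusted p = 0.00182).

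Of 27 other secreted proteins tested, 12 rose and 10 fell, beside the same 27.5% and 26.9%. The acute-phase proteins Orm1, Hp and Saa3 rose by 10.34, 9.14 and 8.65 log2 units, and lipoprotein lipase (Lpl) by 5.88 (limma adjusted p of 0.00108 or less). The chemokine Ccl2 fell by 2.53 (limma adjusted p = 0.00119). Between day 4 and day 8, 1 gene of this list passed the test, Gdf15 (1.79 log2 units higher, limma adjusted p = 0.0453), and no receptor or partner gene did.

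At day 8 most of the list genes past 2-fold were lower with ROS: 4 of 9 receptor genes, 7 of 16 partner genes and 11 of 26 other secreted proteins, against 1 higher in each list. Of all expressed genes 15.2% were lower and 4.00% higher. Low levels enter these counts. Only Agtr2 of the lower receptor genes reached 1 FPKM in either sample, and the lower genes Nmnat2, Sfrp5, C1qtnf3 and Il6 did not. With a pseudocount of 1, the genes called either way over the whole set went from 2988 to 851. Among list genes at 1 FPKM or more in either sample, Angptl4, an inhibitor of lipoprotein lipase, was at 508 FPKM with ROS and 115 without, a ratio of 4.40. Adipor2 was at 224 and 91.7 (ratio 2.44), and Mme, a peptidase that degrades angiotensins, was at 19.7 and 9.57 (ratio 2.06). In the same genes the lowest ratios were 0.0736 for Ren1, 0.126 for Saa3, 0.180 for C1qtnf5, 0.181 for Agtr2 and 0.241 for Hp. The median log2 ratios were -0.53 for the receptors, -0.66 for the partners and -0.90 for the other secreted proteins, beside -0.22 for all expressed genes.

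**Figure D3:**
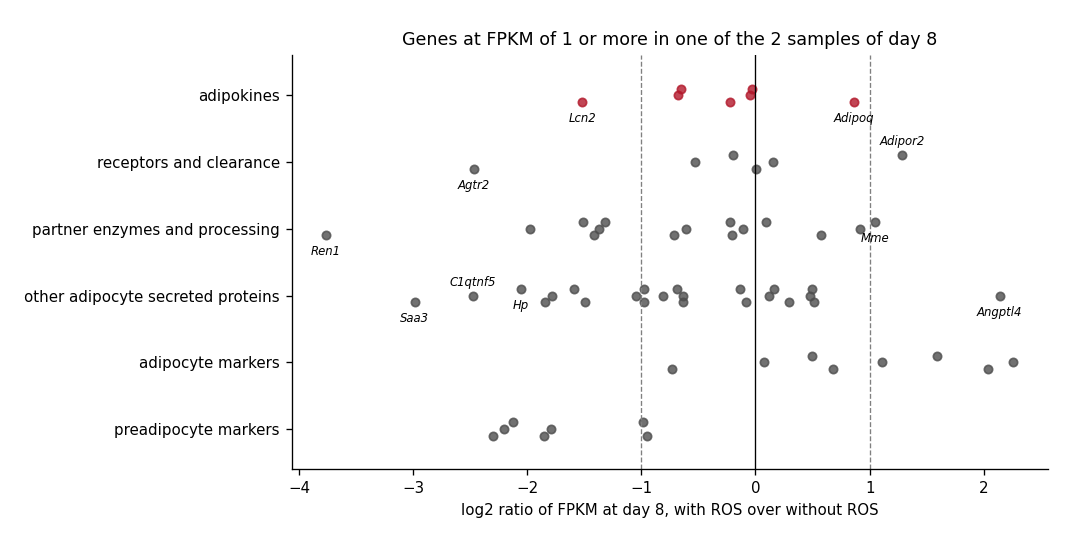
Log2 ratio of FPKM at day 8 with ROS over without ROS (x axis) for the adipokines (top) and 5 gene lists (y axis), 1 gene per point, vertical offsets only for legibility. Genes are drawn where 1 of the samples had an FPKM of 1 or more and neither was at 0, and dashed lines mark 2-fold. Preadipocyte markers lie to the left and most adipocyte markers to the right, while the adipokines spread from Lcn2 (-1.52) to Adipoq (0.87).

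The transduced adipocytes addressed whether phosphorylation of JMJD1A at S265 and its catalytic activity bear on these genes. Within the WT genotype, all 8 genes were lower in WT B than in WT A, by ratios from 0.134 (Lep) to 0.957 (Nampt), and the 1 gene past 2-fold was Lep. The median log2 ratio of WT B over WT A was -0.47 for the 8 genes and 0.07 over all expressed genes. The spread between the 2 WT samples is therefore part of every comparison with them, and ratios are given to their mean, and to each where a call or direction turns. The sources used here do not say whether WT A and WT B were made in 1 experiment with all 3 mutants, so which WT sample matches a mutant is not known. The macrophage markers summed to 6.40 FPKM or less in WT A and the time-course samples after day 0, and to 9.85 to 23.0 in the other transduced samples, mostly from Cd68.

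S265A gave 1 gene of 7 expressed past 2-fold higher, Lcn2, and none lower, beside 3.49% of expressed genes 2-fold or more higher and 6.40% lower. Lcn2 was at 9.21 and 7.88 FPKM in WT A and WT B and at 18.2 in S265A, which is 2.13 times the WT mean, 1.98 times WT A and 2.31 times WT B. It passes 2-fold against WT B and the mean but not against WT A. In untransduced cells at day 8 with ROS Lcn2 was at 29.8 FPKM, above WT A, WT B and S265A. Cfd, at 558 in S265A, was 0.821 times WT A and 1.44 times WT B. Nampt was at 107 and 103 FPKM in WT and at 145 in S265A (ratio 1.38), above both WT samples. Adipoq was at 978 and 738 in WT and 608 in S265A (ratio 0.709). Adipoq, Retn, Rarres2 and Agt were below both WT samples in S265A, by ratios of 0.700 to 0.819 to the mean.

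S265D gave no gene of 7 past 2-fold, beside 4.11% of expressed genes 2-fold or more higher and 4.56% lower. Agt was at 144 and 112 FPKM in WT and at 185 in S265D, 1.44 times the mean and above both WT samples. Adipoq was at 589 in S265D, 0.687 times the WT mean and below both. Cfd was at 680 and 389 in WT A and WT B and at 389 in S265D, so its ratio was 0.572 to WT A and 1.00 to WT B. Nampt was at 130 (ratio 1.24), Lcn2 at 9.45 (ratio 1.11), Retn at 193 (ratio 0.895) and Rarres2 at 123 (ratio 0.840). The direction of these last 2 genes turned with the WT sample: Retn was 0.756 times WT A and 1.09 times WT B, and Rarres2 0.700 and 1.05 times.

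**Figure D4:**
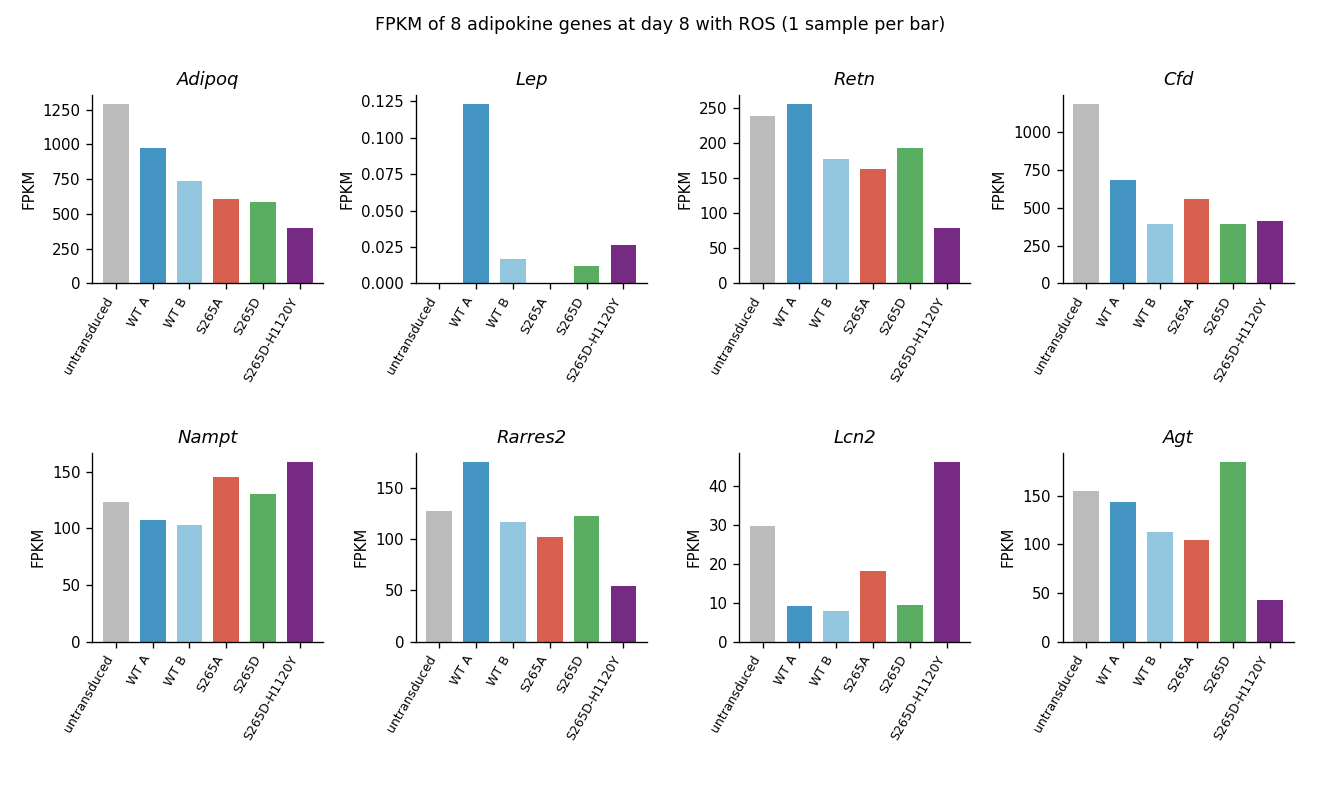
FPKM (y axis, linear from 0 and scaled per gene) of the 8 genes at day 8 with ROS in untransduced cells and in cells transduced with WT (A and B), S265A, S265D or S265D-H1120Y human JMJD1A after knockdown of the mouse gene, 1 sample per bar. S265D-H1120Y has the lowest bar for Adipoq, Retn, Rarres2 and Agt and the highest for Lcn2 and Nampt.

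Against S265D, S265D-H1120Y differed in 4 genes past 2-fold: 3 genes of 7 were lower (Retn, Rarres2 and Agt) and 1 was higher (Lcn2), beside 8.66% and 5.62% of expressed genes. Agt was at 43.2 FPKM, against 185 in S265D (ratio 0.234) and 105 to 144 in the other 3 transduced samples. Retn was at 79.5 against 193 (ratio 0.412) and Rarres2 at 54.2 against 123 (ratio 0.440), and both were also below WT A, WT B and S265A. Lcn2 was at 46.1 against 9.45 (ratio 4.88).

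Adipoq was at 396 FPKM in S265D-H1120Y against 589 in S265D, a ratio of 0.673, within 2-fold. Cfd was at 414 against 389 (ratio 1.06) and Nampt at 159 against 130 (ratio 1.22). In limma's fit of the 5 transduced samples, whose spread came from the WT pair, no gene of 16402 passed for S265D-H1120Y over S265D (0 called, 187 at an unadjusted p under 0.05, among them Agt and Lcn2). The counts were 0 and 107 for S265A over WT and 0 and 99 for S265D over WT.

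**Figure D5:**
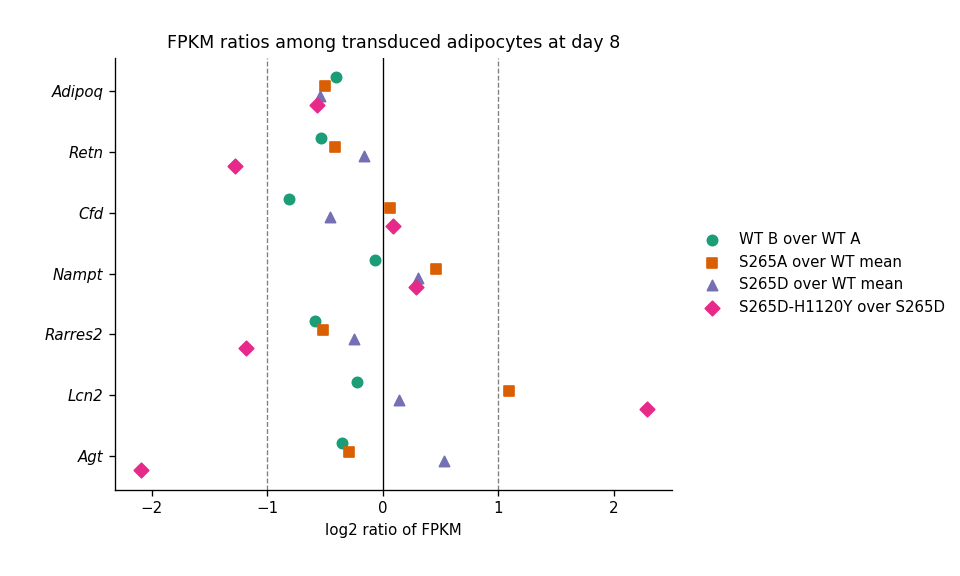
Log2 ratio of FPKM (x axis) for 7 genes (y axis) in 4 comparisons among transduced adipocytes at day 8: WT B over WT A (circles), S265A over the WT mean (squares), S265D over the WT mean (triangles) and S265D-H1120Y over S265D (diamonds), 1 sample per group except the WT mean of 2. Dashed lines mark 2-fold and Lep, at or below 0.123 FPKM, is not drawn. The diamonds of Agt, Retn, Rarres2 and Lcn2 lie beyond the dashed lines, and the WT pair spans up to 0.81 log2 units (Cfd).

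Lep in the transduced samples was at 0.123 FPKM in WT A, 0.0166 in WT B, 0 in S265A, 0.0123 in S265D and 0.0265 in S265D-H1120Y. No difference of Lep among the mutants was resolved at this depth.

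Some marker and list genes differed beside these comparisons. The summed adipocyte markers were 15000 FPKM in WT A, 28748 in WT B, 26000 in S265A, 24732 in S265D and 15319 in S265D-H1120Y, and without Fabp4 they were 2607, 1845, 2093, 1860 and 1191. Ero1l was at 193 and 264 FPKM in WT A and WT B, 464 in S265A, 331 in S265D and 996 in S265D-H1120Y. Beige markers summed to 201 and 26.9 in WT A and WT B, 46.8 in S265A, 164 in S265D and 91.1 in S265D-H1120Y. The sum hides single genes. Of 6 expressed beige markers, Ucp1 and Cidea were 2-fold or more lower in S265D-H1120Y than in S265D, and none was 2-fold higher. Cidea was at 43.4 FPKM in S265D and 2.35 in S265D-H1120Y, while Cox8b, a large part of both sums, was at 73.7 and 57.8. Preadipocyte markers summed to 414 in WT A, 886 in WT B, 495 in S265A, 701 in S265D and 482 in S265D-H1120Y. The part of these differences in the adipokine ratios was not tested.

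Across the 9 differentiated samples the order of levels was partly shared. Adipoq or Cfd was the highest and the other second in all 9, and Lep was the lowest in all 9. In S265D-H1120Y and at day 8 without ROS Cfd was above Adipoq. Agt was the third at day 4 and the seventh in S265D-H1120Y. At day 8 Retn was the third except in S265D-H1120Y, where Nampt was. Agt, Rarres2 and Nampt changed places between samples. The range over the 5 transduced samples was narrowest for Nampt (the highest level was 1.54 times the lowest) and Cfd (1.75 times), followed by Adipoq (2.47 times), Retn (3.21 times), Rarres2 (3.24 times) and Agt (4.28 times), and widest for Lcn2 (5.84 times) among the 7 expressed genes.

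The genes most like each adipokine over the 11 samples were found by Pearson's r of log2(FPKM + 0.1) among 13615 genes. Adipoq was most like G0s2 (r = 0.998), a lipase inhibitor of lipid droplets, Gpd1 and Aldh6a1. Cfd was most like the apolipoprotein gene Apoc3 (r = 0.994), Rarres2 like Fxyd1 (r = 0.992), and Agt like Zbtb16 (r = 0.989) and Thrsp. Lcn2 was most like Apod (r = 0.984), Nampt like Coasy (r = 0.988), Retn like BC034902 (r = 0.995), and Lep like Gch1 (r = 0.916). Lep was at 0 FPKM in 5 of the 11 samples and at no more than 0.252 in the others. Its r therefore rests on levels near the limit of detection. The samples share the step from day 0 to differentiated cells, and this step enters the r of each of the other 7 genes. Over the 9 differentiated samples alone, the nearest genes were others: for Adipoq, AK013593 (r = 0.966) and Hadh (r = 0.960), for Nampt, Kdm4b (r = 0.969), for Cfd, Pdcd7 (r = 0.945), and for Retn, Trim67 (r = 0.962). These are the highest r among 13352 genes over only 9 samples. How high the top r would be among unrelated genes was not computed, so they do not show a shared regulation.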

How the data were processed

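RNA-seq of 11 samples of im-scWAT cells was used. The authors prepared TruSeq libraries, aligned the reads with the Burrows-Wheeler aligner to the mm9 genome and UCSC transcripts and selected the better mapping. They deposited FPKM per transcript, separately for sense and antisense, with log10 and log2 columns of the same FPKM and a coverage signal of mapped bases. How ambiguous reads were shared between transcripts was not given in the sources used here. Rows numbered 110838 per file (55419 transcripts). One sense row per symbol was used, the representative transcript with the highest mean, which left 29955 symbols.

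FPKM are not counts, so log2(FPKM + 0.1) was tested with limma 3.58.1 (R 4.3.3), for genes at 0.1 FPKM or more in any sample of the fit, with Benjamini-Hochberg adjustment over all genes. The time-course fit had day and ROS as terms (6 samples, 2 residual degrees of freedom), and the group fits had 1. Ratios of FPKM had no pseudocount and were called at 2 or more or 0.5 or less. The script was tested on simulated data. Alternatives changed the pseudocount, the minimum, the scaling, the fit and the samples. The marker sum without Fabp4 and the likeness over 9 differentiated samples were added after seeing the data. The genes and lists were chosen with earlier results of these data known. All 8 adipokines are named, with the list genes of highest and lowest ROS ratio past 2-fold at 1 FPKM or more (at most 5 each way), receptors or partners known for an adipokine, and the 3 genes most like each, of which some are printed. C3ar1, Atp6ap2, Orm1, Lpl, Ccl2 and Gdf15 were named after their values were seen. The values of 1 list gene are not reported here.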

Additional observations from a re-analysis of the deposited data

Results flagged for a closer look

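Adipoq and Agt had opposite directions with and without ROS between day 4 and day 8. The ratio of FPKM at day 8 over day 4 was 1.15 with ROS and 0.805 without for Adipoq, and 0.875 and 1.25 for Agt. With 1 sample at each point, the difference between the ratios rested on the spread of the day 0 pair, and in limma's 5-group fit it did not pass (adjusted p = 0.684 for Adipoq and 0.553 for Agt).

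Antisense rows, which no comparison used, held signal above the day 0 level in all 9 differentiated samples for 6 of the genes. The share of all antisense rows that did the same was not computed, so this count is not shown to be particular to these genes. The highest antisense FPKM was 2.09 for Adipoq and 1.57 for Retn (both WT A), 4.43 for Cfd (day 8 without ROS), 1.10 for Nampt (S265A), 1.13 for Rarres2 and 0.220 for Agt (both WT B). In the differentiated samples these levels were between 0.0649% (Agt) and 1.38% (Rarres2) of the sense level. Lcn2 was at 0 antisense FPKM at day 0 and at 0 to 0.174 in the differentiated samples, and Lep was at 0 throughout. The methods say that strand was taken into account, but how the library preparation kept it was not given in the sources used here.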

How the results depend on the processing

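The 7 differentiation calls held in each alternative, while the number of genes called ranged from 3607 to 9413 around 8923 (lowest without the day 0 sample with ROS). Lep passed in the 5-group fit (0.52 log2 units) and without the day 4 sample without ROS or the day 8 sample with ROS (0.91). Between day 8 and day 4, the 2 of the 8 genes called became 4 with a pseudocount of 1 and 0 without a minimum FPKM, in the 5-group fit and with any sample left out (range 0 to 0), and genes called ranged from 0 to 1389 around 140. At day 8 the 2 genes past 2-fold with ROS became 1 with a pseudocount of 1 or a minimum of 1 FPKM, and at day 4 the 0 became 1 without a minimum. For S265A over WT the 1 became 2 without a minimum. For S265D over WT the 0 became 1 without a minimum, and 0 to 1 with a WT sample left out. For WT B over WT A the 1 became 0 with a pseudocount of 1 or a minimum of 1 FPKM. The ROS differences of Nampt and Rarres2 reversed to 0.045 and 0.0080 log2 units with samples scaled to a common upper quartile. With single samples left out, the day 8 over day 4 difference ranged from -0.31 to 0.20 for Adipoq and from -0.19 to 0.32 for Agt. Genes past 2-fold ranged from 5.48% to 27.5% for ROS at day 8 and from 1.34% to 20.8% for S265A. For WT B over WT A they ranged from 9.94% to 34.4%. The causes were not tested. No paired analysis was possible because the labels give replicate letters for WT alone. Depth limits Lep, and Retn and Cfd have overlapping transcripts that may share reads.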
